A study of Mus musculus with 6 samples.

Results

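The genes described here are 10 mouse genes of MHC class II antigen presentation, taken by gene symbol from a deposited table of read counts. They are the chain genes H2-Aa, H2-Ab1 and H2-Eb1, the invariant chain gene Cd74, the peptide loading genes H2-DMa, H2-DMb1, H2-DMb2, H2-Oa and H2-Ob, and the transactivator gene Ciita. All 10 were among the 33924 genes listed and all 10 were expressed highly enough to be among the 15708 genes tested. RNA was sequenced from mouse bone marrow after bead-based removal of cells bearing lineage markers, in 3 libraries labelled Stag2KO and 3 labelled Stag2WT. The Stag2 protein is part of cohesin, a ring-shaped complex that holds sister chromatids together and forms chromatin loops. Apart from sample codes of unstated meaning, the labels give genotype as the only difference between the groups. They do not give the strain, age, sex, allele, Cre driver or treatment of the mice, nor whether each library is from its own animal, so the p-values reflect the spread among these 6 libraries, which may be technical. Such marrow holds progenitors of many kinds beside a few maturing cells, and each value is an average over them.

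MHC class II molecules are pairs of an alpha and a beta chain that show peptides from engulfed or internal proteins to CD4+ T cells. In bone marrow they are made mainly by dendritic cells, B lineage cells, and some monocytes and macrophages. New chains are bound by the invariant chain (Cd74), which fills the groove and guides them to endosomes, where cathepsins cut it down to a short fragment. H2-M (an H2-DMa chain with a chain from either of the beta genes H2-DMb1 and H2-DMb2) removes that fragment and edits the bound peptides, and H2-O (H2-Oa with H2-Ob) binds H2-M and inhibits it. Ciita, the class II transactivator, does not bind DNA itself. It is recruited to S, X and Y boxes in the promoters of these genes by the RFX, CREB and NF-Y factors.

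The Y box and the X box can be seen in the promoters of the members, which are shown because they are the shared sequence that Ciita works through. RefSeq promoter sequences (build GRCm38.p6, 250 bases before to 50 after a gene's start) were matched by symbol for 7 of the 10 genes, in 8 windows because H2-DMa has 2 starts. Searched on both strands, the Y box letters TGATTGG stood in 6 of the 7 genes and in 7.82% of all 32851 windows. The X box letters AAC, any 2 bases and ATGATG, chosen after these promoters had been read, stood in 4 of the 7 genes and in 0.137% of all windows. Each stretch below is 60 bases, 5′ to 3′ on the gene's own strand and wholly before the start, and capitals mark the matches to these letters.
H2-Aa, chr17:34287859-34287918, minus strand: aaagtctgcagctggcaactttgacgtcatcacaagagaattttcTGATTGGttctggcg
H2-Eb1, chr17:34305761-34305820, plus strand: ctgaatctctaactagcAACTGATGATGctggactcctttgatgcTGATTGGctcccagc
H2-DMb1, chr17:34153083-34153142, plus strand: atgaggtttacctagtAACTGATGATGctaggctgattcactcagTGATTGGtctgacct
H2-DMb2, chr17:34145112-34145171, plus strand: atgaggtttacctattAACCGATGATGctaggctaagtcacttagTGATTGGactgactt
H2-Oa, chr17:34092289-34092348, plus strand: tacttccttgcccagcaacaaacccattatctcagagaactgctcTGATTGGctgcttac
H2-Ob, chr17:34238801-34238860, plus strand: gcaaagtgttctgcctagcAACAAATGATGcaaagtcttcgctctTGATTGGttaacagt

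In the 6 stretches the Y box letters ended between 38 bases (H2-Oa) and 85 bases (H2-DMb2) before the gene's start. Where both matches were found, 15 to 18 bases lay between them. The stretches of H2-DMb1 and H2-DMb2 were identical at 53 of 60 bases, more than any other pair among the 6 (15 to 28 bases). The H2-DMa windows held neither set of letters. A match describes letters in a window and is not evidence of a bound factor. The H2-Oa stretch, from the member that rose in the data below, and the H2-Aa stretch both carried the Y box letters and neither carried the X box letters as written. Lack of these exact letters, here or in H2-DMa, does not show that a box is missing.

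The libraries held 29435651 to 37722325 reads assigned to genes. Levels are given as CPM, which are counts relative to TMM-scaled sequencing depth. The targeted gene Stag2 stood at 169, 187 and 183 CPM in the Stag2KO libraries and 338, 329 and 324 CPM in the Stag2WT libraries, a log2 change of -0.88 (SE 0.06, adjusted p = 0.000278). The share of reads outside annotated genes was 11.7% ± 0.984 in Stag2KO and 9.24% ± 0.725 in Stag2WT (SD, n = 3 each), and their part in the differences below was not tested. The members were covered by 151 reads (Ciita) to 16209 reads (Cd74) per library, so counting error was at most 8.14%.

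Of the 10 members, H2-DMa and H2-DMb1 fell in Stag2KO, H2-Oa rose, and the other 7 were not called at an adjusted p under 0.05 by edgeR's quasi-likelihood test. Of all tested genes 21.2% were called, 10.5% lower and 10.7% higher. At an unadjusted p under 0.05 the same 3 members passed, against 37.1% of all tested genes. The fitted log2 fold change was below 0 for 8 members and above 0 for H2-Oa and H2-Ob, with a median of -0.57, against a median of 0.01 over all tested genes. For the 3 called members the groups did not overlap, 2 lower and 1 higher in Stag2KO, and for the other 7 they did. Groups did not overlap for 43.5% of all tested genes (21.2% with Stag2KO below, 22.2% with Stag2KO above). Summed over the 10 genes, class II reads stood at 419.5, 429.7 and 733 CPM in Stag2KO and at 1075, 689 and 664 CPM in Stag2WT. The sum was 65.2% of the Stag2WT level, but the highest Stag2KO library lay above the lower Stag2WT libraries (two-sided exact permutation p = 0.3, adjusted p = 0.6 over the 4 such values tested). The smallest p that 3 against 3 samples allow is 0.1. In bulk RNA, fewer cells that express these genes and less RNA per cell cannot be told apart.

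**Figure D1:**
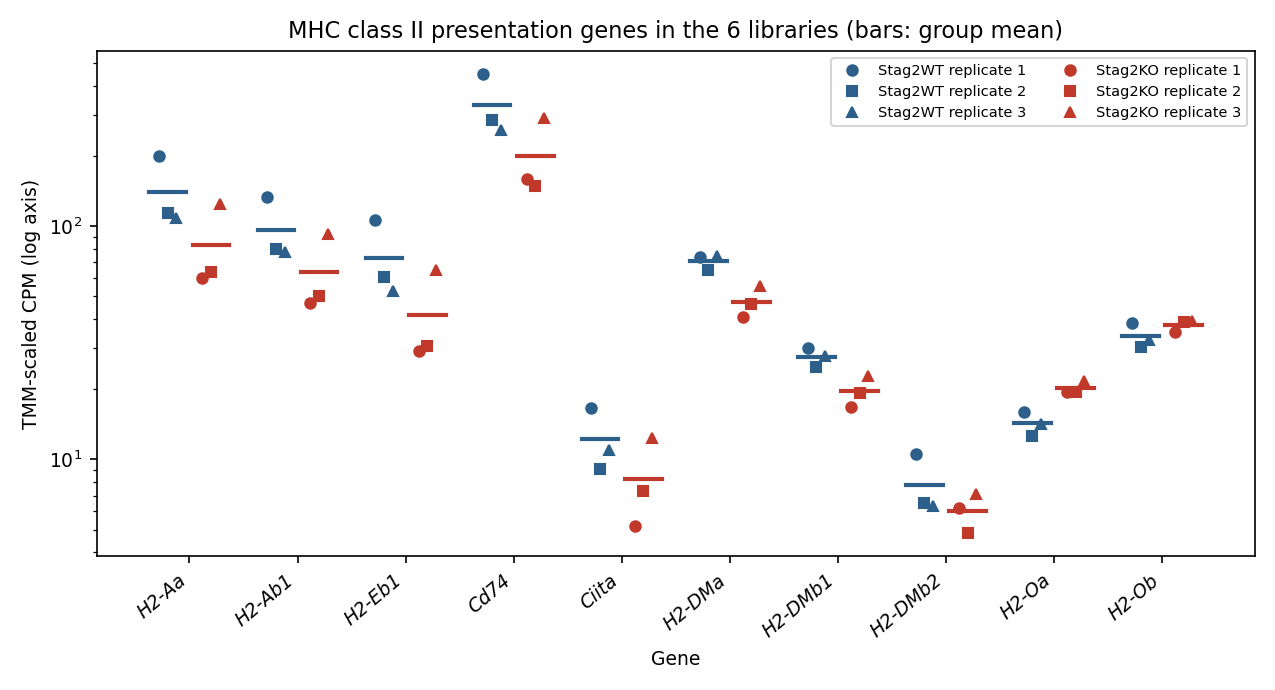
TMM-scaled CPM (log axis) of the 10 class II genes in each library, with Stag2WT in blue and Stag2KO in red, a symbol for each replicate and a bar at the group mean. The Stag2KO replicate 3 value of H2-Aa, 125 CPM, lies above the 115 and 109 CPM of Stag2WT replicates 2 and 3, whereas all Stag2KO values of H2-DMa lie below 65.2 CPM, the lowest Stag2WT value.

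The genes of the class II molecule itself were not called, and their values were spread widely within each group. H2-Aa, the alpha chain of the A molecule, was at 60.3, 63.4 and 125 CPM in Stag2KO and 199, 115 and 109 CPM in Stag2WT. Stag2KO replicates 1 and 2 were low, and Stag2KO replicate 3 was level with Stag2WT replicates 2 and 3. The log2 fold change was -0.77 (SE 0.41, 95% interval -1.83 to 0.30, adjusted p = 0.249). H2-Ab1, the beta chain of the same molecule, was at 47.1, 50.4 and 92.9 CPM against 133, 79.5 and 77.5 CPM (log2 fold change -0.61, SE 0.37, adjusted p = 0.299). H2-Eb1, the beta chain of the E molecule, was at 29.2, 30.8 and 64.7 CPM against 106, 60.7 and 52.6 CPM (-0.81, SE 0.45, adjusted p = 0.262). The intervals of these genes reach from a fall well over the size seen for H2-DMa to a small rise, so a p above the threshold does not show equal levels.

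The invariant chain gene followed the chains. Cd74 was at 159, 149 and 292 CPM in Stag2KO and 451, 285 and 258 CPM in Stag2WT, with a log2 fold change of -0.73 (SE 0.36, adjusted p = 0.217). The ratio of Cd74 reads to the summed reads of H2-Aa, H2-Ab1 and H2-Eb1 was nearly level, at 1.17, 1.03 and 1.03 in Stag2KO and 1.03, 1.12 and 1.08 in Stag2WT. Its group means were 1.08 ± 0.0777 and 1.08 ± 0.0465 (SD, n = 3 each; two-sided exact permutation p = 1 on the log2 ratio). The alpha to beta read ratio of the A molecule, H2-Aa over H2-Ab1, was 1.28, 1.26 and 1.34 in Stag2KO and 1.498, 1.44 and 1.41 in Stag2WT. This last ratio, looked at after other values had been seen, did not overlap between the groups.

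Ciita, the transactivator of the whole set, was the lowest member per base of transcript. It was at 5.17, 7.30 and 12.3 CPM in Stag2KO and 16.7, 9.14 and 10.97 CPM in Stag2WT, so Stag2KO replicate 3 exceeded Stag2WT replicates 2 and 3. The log2 fold change was -0.57 (SE 0.36, adjusted p = 0.303).

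Within each group, the same libraries were high for the chains, Cd74 and Ciita. Stag2KO replicate 3 held 2.02 times the mean of the other Stag2KO libraries for H2-Aa, 1.91 times for H2-Ab1, 2.16 times for H2-Eb1, 1.89 times for Cd74 and 1.97 times for Ciita. Stag2WT replicate 1 held 1.66 times (Cd74 and Ciita) to 1.88 times (H2-Eb1) the mean of the other Stag2WT libraries. For H2-DMa the same ratios were 1.28 and 1.05, and for H2-Ob 1.06 and 1.23. Stag2KO replicate 3 was the highest Stag2KO library for all 10 members, and for 30.9% of all tested genes. Stag2WT replicate 1 was the highest Stag2WT library for 9 of the 10, the exception being H2-DMa, and for 32.2% of all tested genes. Some other lists showed the same order and others did not. Stag2KO replicate 3 was the highest Stag2KO library for 20 of 21 class I presentation genes, 9 of 10 plasmacytoid dendritic cell genes and 9 of 10 T cell genes. Stag2WT replicate 1 was the highest Stag2WT library for all 20 B cell genes and all 10 T cell genes. Each of these libraries was the highest of its group for 10 of 12 monocyte genes. By contrast, Stag2KO replicate 3 was highest in its group for 11 of 20 B cell genes and 2 of 12 stem and progenitor genes. For Stag2WT replicate 1 the counts were 9 of 19 macrophage genes and 3 of 12 stem and progenitor genes. In the labels, Stag2KO replicates 1 and 2 carry codes that begin with RM and Stag2KO replicate 3 one that begins with SC, while the Stag2WT codes begin with RI, SH and SP. No prefix occurs in both groups, so a difference tied to the codes cannot be told apart from genotype. What the codes stand for is not given in the labels, and their part in the spread was not tested. Leaving out Stag2KO replicate 3 moved the log2 fold changes to -1.19 (H2-Aa), -0.99 (H2-Ab1), -1.28 (H2-Eb1), -1.10 (Cd74) and -0.97 (Ciita), with adjusted p from 0.0625 to 0.0983. Leaving out Stag2WT replicate 1 moved them to between -0.45 and -0.28 (adjusted p 0.414 to 0.614).

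**Figure D2:**
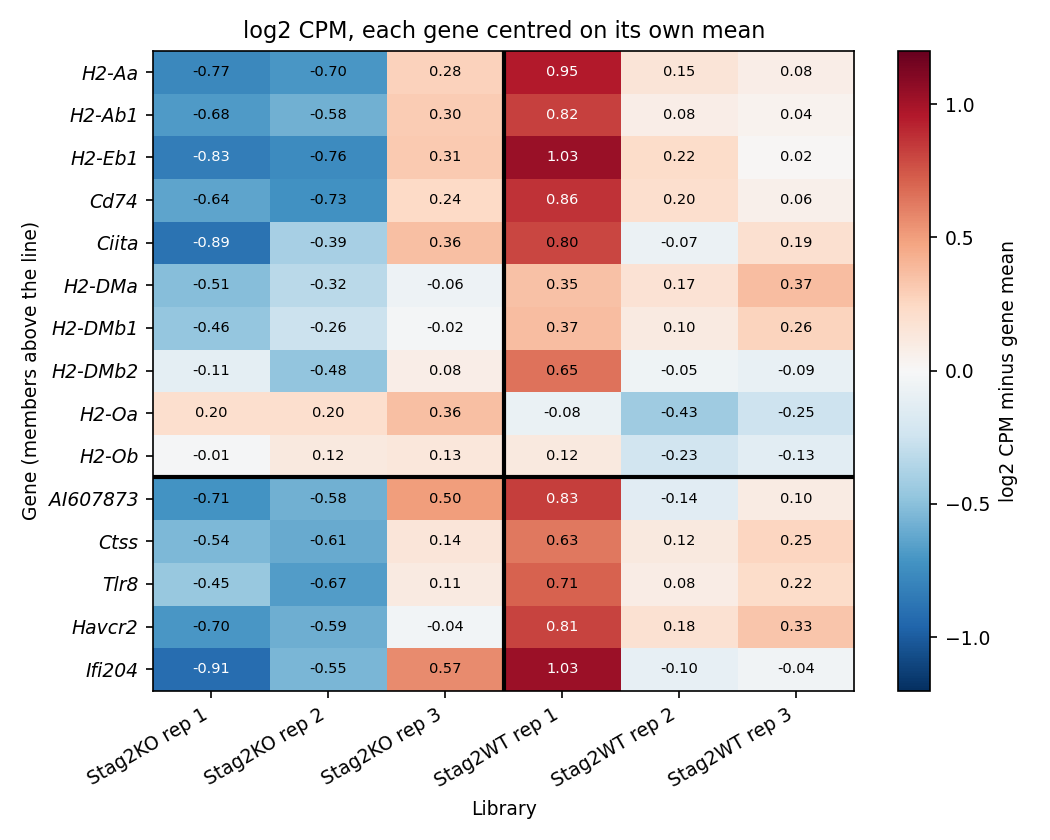
log2 CPM of the 10 members (above the line) and of the 5 genes closest to the chain and Cd74 profile (below it), each centred on its own mean over the 6 libraries, with red for above and blue for below that mean. H2-Aa runs from -0.77 in Stag2KO replicate 1 to 0.95 in Stag2WT replicate 1 with Stag2KO replicate 3 at 0.28, while H2-Oa is above its mean in all 3 Stag2KO libraries.

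The genes outside the set whose pattern over the 6 libraries came closest to the average of H2-Aa, H2-Ab1, H2-Eb1 and Cd74 were AI607873, Ctss, Tlr8, Havcr2 and Ifi204. Likeness was the root mean square difference of log2 CPM after centring each gene, over 10814 genes averaging 5 CPM or more. It was 0.16 for AI607873 and 0.19 for Ifi204, the fifth gene, against 0.19 for Ciita, 0.34 for H2-DMb1, 0.35 for H2-DMa and 0.72 for H2-Oa. Ctss encodes cathepsin S, the endosomal protease known for the last cut of the invariant chain. It was at 116, 111 and 186 CPM in Stag2KO and 261, 183 and 201 CPM in Stag2WT (fitted log2 change -0.64, adjusted p = 0.118). Tlr8 encodes an endosomal Toll-like receptor, Havcr2 the receptor TIM-3 and Ifi204 an interferon-inducible protein. Of the 5, edgeR called Havcr2 lower (-0.87, adjusted p = 0.0334), a call that 4 of the 6 fits leaving out 1 library lost (adjusted p up to 0.101). Ctss and Tlr8 were called by DESeq2 and by edgeR without Stag2KO replicate 3.

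The peptide editor H2-M has 3 genes here, and H2-DMa and H2-DMb1 fell. H2-DMa, its alpha chain, was at 40.6, 46.4 and 55.5 CPM in Stag2KO and 73.7, 65.2 and 74.7 CPM in Stag2WT. Every Stag2KO value lay below every Stag2WT value. The fall was 1.497-fold (log2 fold change -0.58, SE 0.12, 95% interval -0.85 to -0.32, adjusted p = 0.0116), and the call was kept whichever library was left out (adjusted p 0.00523 to 0.0431). H2-DMb1, the main beta chain by reads, was at 16.8, 19.3 and 22.7 CPM against 29.9, 24.8 and 27.7 CPM, also without overlap. It fell 1.40-fold (log2 fold change -0.49, SE 0.13, adjusted p = 0.0312). The adjusted p was 0.0804 or 0.0850 when Stag2KO replicate 1 or 2 was left out, and 0.0842 or 0.0693 when Stag2WT replicate 1 or 3 was, so the call was lost in those 4 fits.

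The other beta chain gene, H2-DMb2, was at 6.20, 4.82 and 7.10 CPM in Stag2KO and 10.5, 6.48 and 6.29 CPM in Stag2WT. The Stag2WT spread came from replicate 1, and the groups overlapped (log2 fold change -0.36, SE 0.24, adjusted p = 0.297). H2-DMb2 made up 27.0%, 20.0% and 23.8% of the reads of both beta chain genes in Stag2KO and 26.0%, 20.7% and 18.5% in Stag2WT. The group means were 23.6% ± 3.53 and 21.7% ± 3.89 (SD, n = 3 each), and the difference was within the spread (two-sided exact permutation p = 0.6). The genes are close copies, and reads that align to more than 1 place were not counted, so the split between them is uncertain.

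A chain gene of the inhibitor H2-O rose. H2-Oa, the alpha chain, was at 19.4, 19.4 and 21.8 CPM in Stag2KO and 15.998, 12.6 and 14.3 CPM in Stag2WT, so that every Stag2KO value was above every Stag2WT value. It rose 1.42-fold (log2 fold change 0.50, SE 0.12, 95% interval 0.24 to 0.77, adjusted p = 0.0203). Leaving out Stag2KO replicate 3 gave 0.45 (adjusted p = 0.0710), and leaving out Stag2WT replicate 3 gave 0.50 (adjusted p = 0.0506), neither of them called. H2-Ob, the beta chain, was at 35.4, 38.7 and 39.1 CPM against 38.6, 30.3 and 32.6 CPM and was not called (0.16, SE 0.10, 95% interval -0.08 to 0.39, adjusted p = 0.303). Its values overlapped through Stag2WT replicate 1.

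Ratios within a library do not depend on how libraries are scaled. H2-Oa and H2-Ob reads stood to H2-Aa and H2-Ab1 reads at 0.511, 0.510 and 0.280 in Stag2KO and at 0.164, 0.221 and 0.251 in Stag2WT. All Stag2KO values were above all Stag2WT values, with Stag2KO replicate 3 nearest to them. On the log2 scale the difference was 0.999 (two-sided exact permutation p = 0.1, the smallest possible, adjusted p = 0.4 over the 4 values tested). The ratio of inhibitor to editor, H2-O reads over the reads of H2-DMa, H2-DMb1 and H2-DMb2, was 0.862, 0.823 and 0.713 in Stag2KO and 0.478, 0.444 and 0.431 in Stag2WT. Its means were 0.799 ± 0.0772 and 0.451 ± 0.0242 (SD, n = 3 each). This second ratio was chosen after the values of its genes had been seen and is given without a test.

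**Figure D3:**
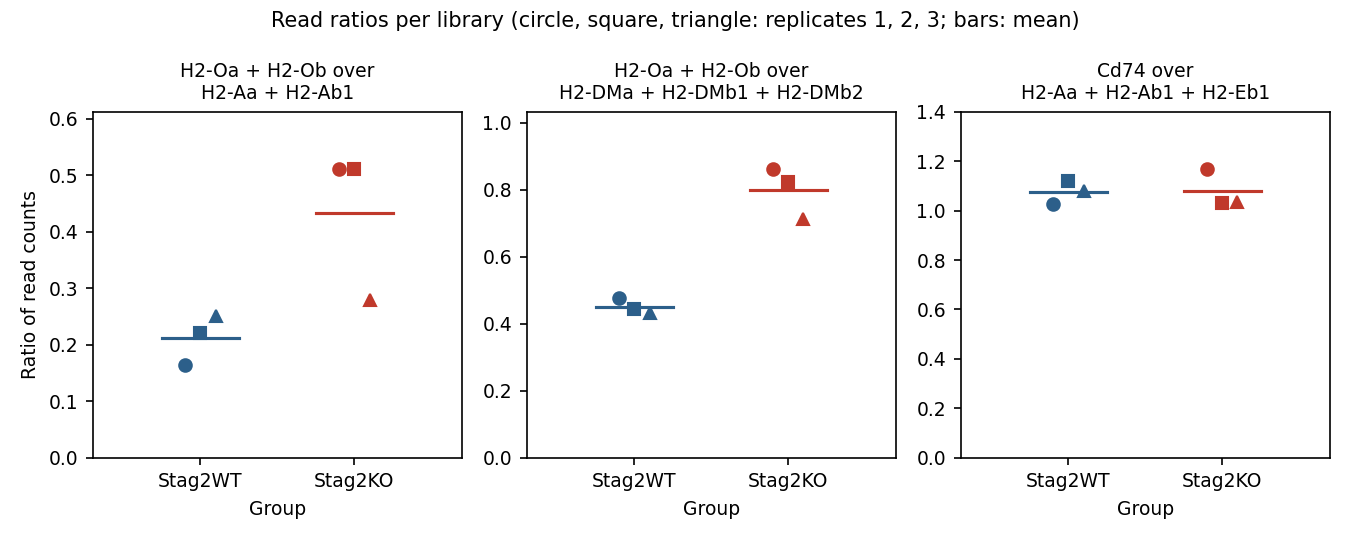
Ratios of read counts in each library, from 0, with Stag2WT in blue, Stag2KO in red and bars at the group means. H2-O over H2-M lies between 0.713 and 0.862 in Stag2KO and between 0.431 and 0.478 in Stag2WT, while Cd74 over the chains lies between 1.03 and 1.17 in all 6 libraries.

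Per kilobase of exon (GENCODE M21 exon lengths on GRCm38, a build other than that of the counts, so the levels are approximate), Cd74 was highest in Stag2WT at 234 ± 73.7 CPM per kilobase. It was followed by H2-Aa (125 ± 45.0), H2-Ab1 (79.8 ± 26.0), H2-Eb1 (43.8 ± 17.3), H2-DMa (26.7 ± 1.97), H2-DMb1 (19.6 ± 1.82), H2-Oa (13.1 ± 1.58), H2-Ob (9.63 ± 1.22), H2-DMb2 (4.45 ± 1.38) and Ciita (1.49 ± 0.479; SD, n = 3 each). Of neighbours in this order, the Stag2WT ranges of H2-Aa and H2-Ab1 overlapped and the others did not, although the lowest H2-Ab1 value (63.9) was close to the highest H2-Eb1 value (63.7). In Stag2KO H2-Oa stood at 18.6 ± 1.26 CPM per kilobase, above H2-DMb1 at 14.0 ± 2.14 and beside H2-DMa at 17.8 ± 2.81. The order of H2-Oa and H2-DMb1 was thus the reverse of that in Stag2WT. The chains and Cd74 together held 72.4% ± 5.26 of all member reads in Stag2KO and 78.7% ± 3.93 in Stag2WT (SD, n = 3 each).

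Among other class II loci, the row H2-Ea-ps, listed for the alpha chain of the E molecule, had 0 reads in every library. With counting error only, the 95% upper bound for a count of 0 is about 3 reads, or 0.0786 to 0.103 CPM. H2-Eb2, a further beta chain gene at very low level, was at 0.548, 0.408 and 0.629 CPM in Stag2KO and 1.89, 1.09 and 0.702 CPM in Stag2WT, and was not called (log2 fold change -1.21, adjusted p = 0.0608), although it was called with no filter beyond 1 read and without Stag2WT replicate 3.

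Among genes that process antigen for class II molecules, all called genes were lower in Stag2KO. In a list of 23 proteases, regulators and turnover genes, all tested, 6 were called lower and 17 were not called. The share called lower was 26.1%, against 10.5% of all tested genes called lower (21.2% called in either direction). The median log2 fold change was -0.18. Lgmn encodes an asparagine endopeptidase that has been proposed to start the cutting of the invariant chain. Its level fell from 68.2, 50.9 and 58.2 CPM in Stag2WT to 21.2, 15.0 and 24.6 CPM in Stag2KO (log2 fold change -1.54, adjusted p = 0.00325). The lysosomal protease genes Ctsd (-0.51, adjusted p = 0.0108) and Ctsb (-0.51, adjusted p = 0.0268) fell, as did Cst3 (-0.41, adjusted p = 0.0148), which encodes the protease inhibitor cystatin C. Ifi30, the thiol reductase that opens disulfide bonds of antigens, fell by 0.54 log2 units (adjusted p = 0.0351). March8, a ubiquitin ligase that can target class II molecules, fell by 0.54 (adjusted p = 0.0259), while the dendritic and B cell ligase gene March1 was not called (-0.44, adjusted p = 0.229). Ctsl, another cathepsin gene, was called without Stag2KO replicate 3 but not with all libraries (-0.31, adjusted p = 0.317), and the intramembrane protease gene Sppl2a, found as 2010106G01Rik, was not called (-0.18, adjusted p = 0.134). When each library was left out in turn, the Ifi30 call was kept in 1 of the 6 fits (adjusted p otherwise up to 0.104), and those of Ctsb (up to 0.0687) and March8 (up to 0.0739) in 2. The calls of Lgmn, Ctsd and Cst3 were kept in all 6. Called genes of this list numbered 3 when Stag2KO replicate 2, or either of Stag2WT replicates 1 and 2, was left out.

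The factors that place Ciita on promoters were not called. Their log2 fold changes were 0.22 for Rfx5 (adjusted p = 0.11), -0.18 for Rfxap (0.396), 0.28 for Rfxank (0.198), -0.05 for Nfya (0.588), -0.10 for Nfyb (0.487), -0.11 for Nfyc (0.278) and -0.15 for Creb1 (0.104). Other regulators in the list of 23 that are known to act on the Ciita gene itself were not called either. They included the interferon pathway gene Irf1 (0.28, adjusted p = 0.0907), the myeloid factor genes Irf8 (-0.32, adjusted p = 0.343) and Spi1, found as Sfpi1 (0.09, adjusted p = 0.558), and the repressor gene Prdm1 (-0.16, adjusted p = 0.688). Spib, a factor of B cells and plasmacytoid dendritic cells, was at 37.0, 47.6 and 80.3 CPM in Stag2KO and 122.6, 95.03 and 103.6 CPM in Stag2WT, without overlap, and was not called (-0.96, adjusted p = 0.0839). It was called lower by DESeq2, by limma-voom, by edgeR without robust dispersion and by edgeR without Stag2KO replicate 3, so its call depends on the fit. Irf4, a factor gene outside this list and counted among the classical dendritic cell genes below, was called lower (-1.34, adjusted p = 0.00429).

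**Figure D4:**
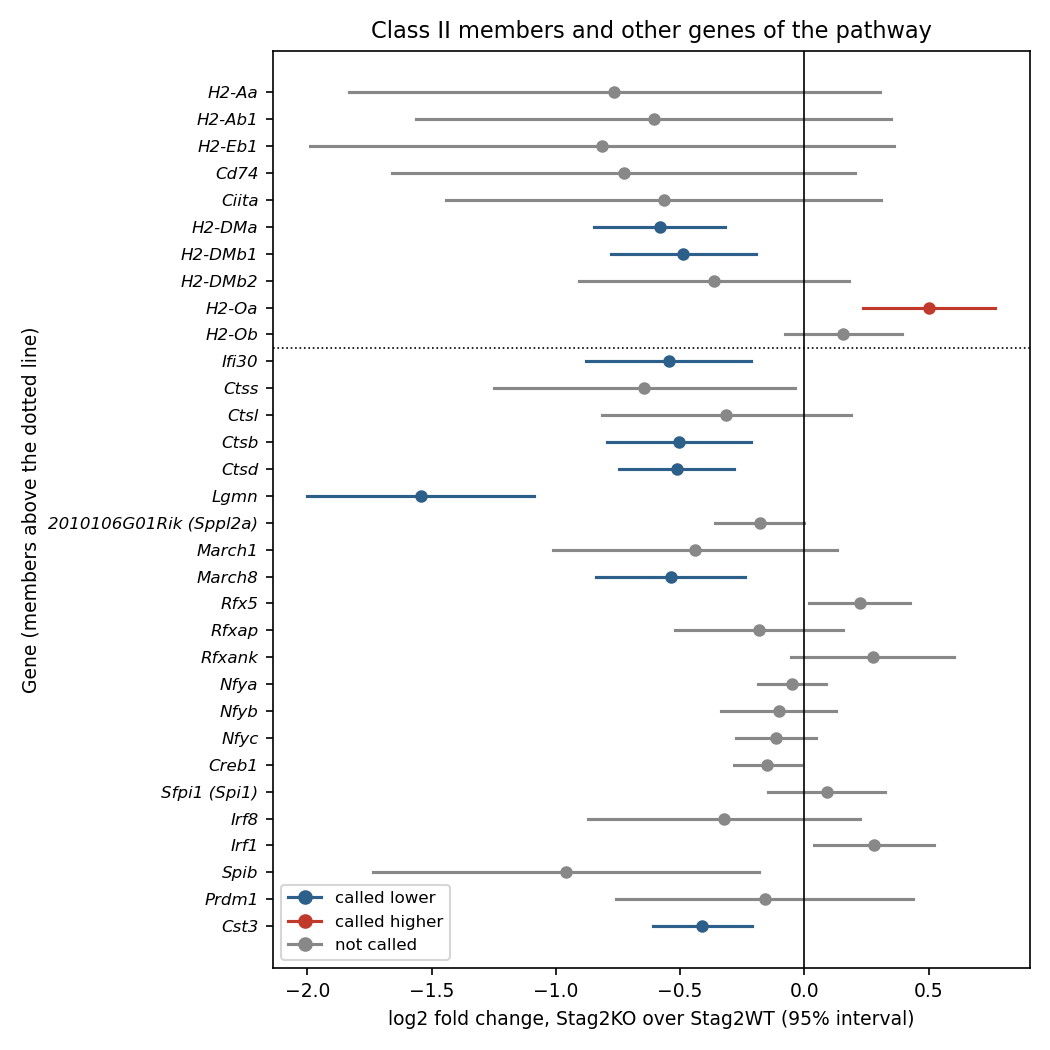
log2 fold change of Stag2KO over Stag2WT with its 95% interval for the 10 members (above the dotted line) and 22 other genes of the pathway, coloured by call. The chain and Cd74 intervals span 0, H2-DMa at -0.58 and H2-DMb1 at -0.49 lie below it, H2-Oa at 0.50 lies above it, and Lgmn at -1.54 is the lowest value.

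Antigen-presenting cells carry further membrane proteins that T cells meet beside class II molecules, both stimulating (Cd80, Cd86, Icosl, Cd83 and the receptor Cd40) and inhibitory (Cd274 and Pdcd1lg2). Of these 7 genes 4 were called lower (57.1%, against 10.5% of all tested genes called lower) and 3 were not called, with a median log2 fold change of -1.09. Icosl, the ligand of ICOS, was at 9.18, 8.03 and 12.4 CPM in Stag2KO and 24.2, 18.2 and 21.8 CPM in Stag2WT (-1.12, adjusted p = 0.00496). Cd83, a membrane gene of mature dendritic cells, fell by 1.76 log2 units (adjusted p = 0.00515). Cd274, encoding PD-L1, was not called (-0.08, adjusted p = 0.739). Cd86, named after its values were seen, was at 2.71, 2.31 and 4.19 CPM against 13.7, 12.1 and 12.4 CPM (-2.05, adjusted p = 0.00113). The last called gene, Pdcd1lg2, encodes the inhibitory ligand PD-L2 and had its call in 1 of the 6 fits without a library (-1.09 and adjusted p = 0.0464 with all libraries).

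Genes of MHC class I presentation, the pathway that shows cytosolic peptides to CD8+ T cells, were called for 1 of 21. That share was 4.76%, against 21.2% of all tested genes called in either direction and 10.5% called lower. The median log2 fold change of the list was 0.15. The called gene was Canx, an endoplasmic reticulum chaperone shared by many proteins, which fell by 0.28 log2 units (adjusted p = 0.0388) and kept its call in 1 of the 6 fits without a library (adjusted p otherwise up to 0.106). B2m, the light chain of class I molecules, was at 1054, 1070 and 1341 CPM in Stag2KO and 1149, 1030 and 1058 CPM in Stag2WT (fitted log2 change 0.10, adjusted p = 0.542). H2-D1, a heavy chain gene whose many close copies make its count uncertain, had a log2 value of 0.10 (adjusted p = 0.569) and the chaperone gene Calr 0.07 (adjusted p = 0.703). By DESeq2, 2 genes of this list were called, Canx and the heavy chain gene H2-Q4.

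The class II genes of chromosome 17 lie among genes with other roles. In a list of neighbours of the members' loci, edgeR called 0 of 29 tested genes, against 21.2% of all tested genes. At an unadjusted p under 0.05 there were 5 of 29 (Tap2, Btnl2, H2-Eb2, Gpsm3 and Daxx), against 37.1% of all tested genes. DESeq2 called 1 (Gpsm3) and limma-voom called 0. In gene order on GRCm38, 8 members and 22 tested neighbours of this list could be placed in the region, and the neighbours had a median log2 fold change of 0.00. The bromodomain gene Brd2, between H2-Oa and H2-DMa, stood at 0.05 (SE 0.06, 95% interval -0.09 to 0.19, adjusted p = 0.589). Between the H2-M genes and H2-Ob lie the class I genes Psmb9 (0.15, adjusted p = 0.253), Tap1 (0.21, adjusted p = 0.289), Psmb8 (-0.06, adjusted p = 0.738) and Tap2 (0.21, adjusted p = 0.0624). Beyond H2-Eb1, H2-Eb2 and the butyrophilin-like gene Btnl2 (-1.03, adjusted p = 0.0842) were both under 2 CPM in every library. Next to Ciita, the genes Dexi (-0.13, adjusted p = 0.47), Clec16a (0.07, adjusted p = 0.569) and Socs1 (0.09, adjusted p = 0.766) were not called.

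**Figure D5:**
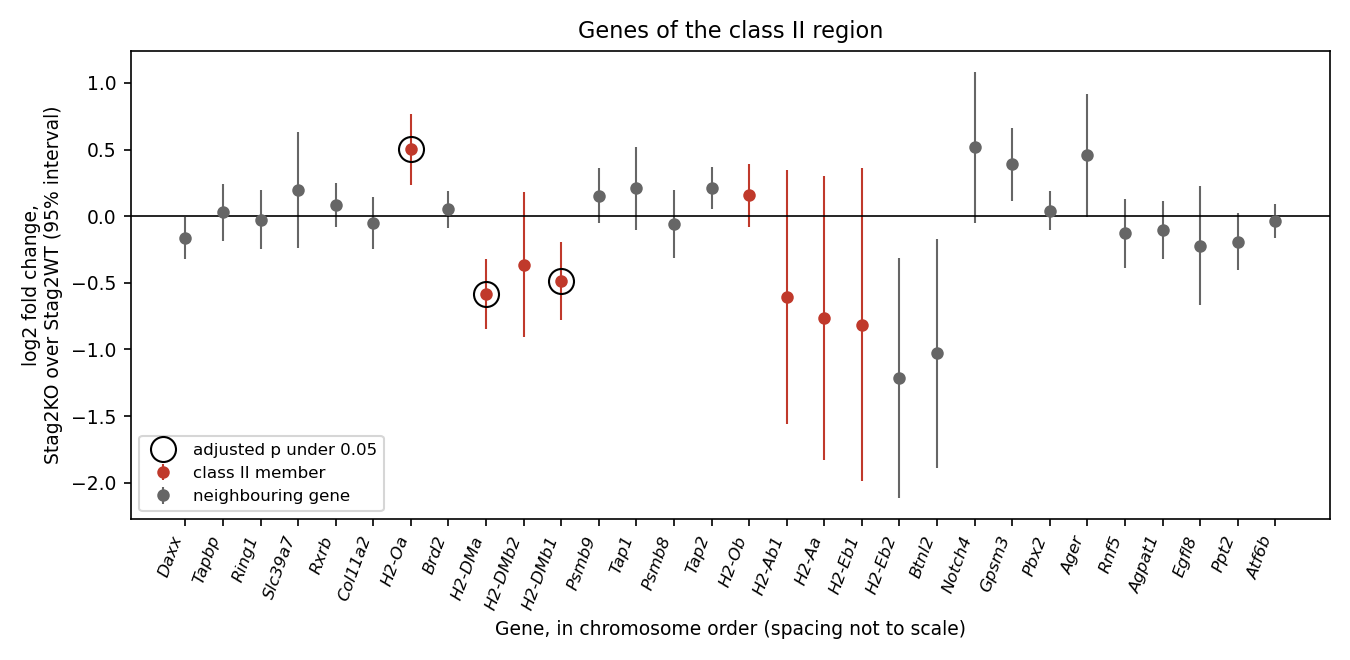
log2 fold change of Stag2KO over Stag2WT with its 95% interval for 30 genes of the class II region in chromosome order, not to scale, with members in red, neighbours in grey and called genes ringed. H2-Oa at 0.50 and H2-DMa at -0.58 stand on either side of Brd2 at 0.05.

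Markers of the cell types that carry class II molecules also differed between the groups, and their part in the class II values was not tested. Their counts are to be read against the 10.5% of all tested genes called lower. In the B cell list 16 of 20 tested genes were called lower, 1 (the tetraspanin gene Cd37, log2 fold change 0.60) higher and 3 not called, with a median of -1.24. Apart from Ighm, the summed B cell markers ranged from 440.6 to 544 CPM in Stag2KO and from 645 to 879 CPM in Stag2WT. With Ighm, an immunoglobulin gene that was not called (-0.70, adjusted p = 0.284), they ranged from 1226 to 1531 and from 1423 to 3227 CPM. In the macrophage list 17 of 19 were called lower and 2 not called, with a median of -2.27 and sums of 567 to 793 CPM against 1997 to 2121 CPM. In the monocyte list 8 of 12 were called lower and 4 not called (median -0.93, sums 1055 to 1127 against 1492 to 1754 CPM). The monocyte count was 4 without Stag2KO replicate 1 or Stag2WT replicate 3 and 5 without Stag2KO replicate 2. In none of these 3 lists was any matched gene at 0 reads in all libraries.

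Among dendritic cell markers a smaller share was called than in the B cell, macrophage and monocyte lists. Of 16 classical dendritic cell genes 4 were called lower (25%, against 10.5% of all tested genes called lower) and 12 were not called. The median of this list was -0.49, with 13 genes below 0 and 3 above. Its sums were 433 to 600.3 CPM in Stag2KO and 520.5 to 691 CPM in Stag2WT. The called genes were the factor genes Zbtb46, Batf3 and Irf4 and the chemokine receptor gene Ccr7. Batf3, at 0.377 to 1.36 CPM, lost its call in 4 of the 6 fits leaving out 1 library (adjusted p up to 0.0742). Zbtb46, Irf4 and Ccr7 kept theirs in all 6. The most abundant genes of the classical list, Wdfy4 (0.15, adjusted p = 0.467), Flt3 (-0.28, adjusted p = 0.396) and Kmo (0.01, adjusted p = 0.980), were not called. Of 10 plasmacytoid dendritic cell genes 1, Cox6a2, was called lower and 9 were not (10% called, median -0.04), and 2 were called without Stag2KO replicate 2 or 3. Siglech, the surface marker of these cells, was at 92.5, 142 and 237 CPM in Stag2KO and 156, 95.7 and 154 CPM in Stag2WT (0.22, adjusted p = 0.735).

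The libraries with high class II chain reads were high for some of these lists and near the others of their group for others. Summed over each list, Stag2KO replicate 3 held 1.95 times the mean of the other Stag2KO libraries for the chains with Cd74 and 1.604 times for plasmacytoid dendritic cell markers. It held 1.25 times for classical dendritic cell markers, 1.16 times for B cell markers apart from Ighm (1.05 times with Ighm), 1.14 times for macrophage markers and 0.987 times for monocyte markers. The monocyte sum includes Ccr2, at 310, 499 and 228 CPM in Stag2KO. By gene, Stag2KO replicate 3 was the highest Stag2KO library for 10 of 12 monocyte genes. T cell markers summed to 47.7 to 93.5 CPM in Stag2KO and 72.4 to 138 CPM in Stag2WT. For them Stag2KO replicate 3 held 1.83 times the mean of the other Stag2KO libraries. Of the 10 T cell genes 6 were called lower (60%, against 10.5% of all tested genes called lower) and 4 were not called. The median log2 fold change of this list was -1.16. Its most abundant gene, Cd4, which some dendritic cells also express, was not called. Cd4 was at 13.5, 14.6 and 41.5 CPM in Stag2KO and 46.4, 19.0 and 27.9 CPM in Stag2WT. Stag2WT replicate 1 held 1.72 times the mean of the other Stag2WT libraries for the chains with Cd74. The same ratio was 1.64 for T cell markers, 1.30 for B cell markers apart from Ighm, 1.87 for B cell markers with Ighm, 1.16 for classical and 1.15 for plasmacytoid dendritic cell markers, 1.13 for monocyte markers and 1.06 for macrophage markers. Genes of stem and progenitor cells were called higher for 5 of 12 (41.7%, against 10.7% of all tested genes called higher; among them Cd34, Meis1, Hlf and Gata2) with 7 not called (median 0.29), at 1447 to 1550 CPM in sum in Stag2KO and 1242 to 1321 CPM in Stag2WT. That count was 3 without Stag2KO replicate 2 and 2 without Stag2WT replicate 1 or 2.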

How the data were processed

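The deposited values are raw counts of reads, listed by gene symbol for each of the 6 libraries. The tools named are STAR 2.4, HTSeq 0.6.1 and DESeq2, with build mm9, per the submitters' processing notes. For annotation, strand setting and library kit the sources used here name nothing, so overlapping or antisense reads cannot be told apart. Counter totals that name no gene (no annotated gene 8.81% to 12.8% of a library's total, ambiguous 2.02% to 2.2%, aligned to more than 1 place 23.4% to 28.6%) were left out. Genotype came from the labels; replicates were numbered in accession order and only name samples.

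The test was edgeR 4.0.16 in R 4.3.3 (TMM, filterByExpr, robust quasi-likelihood fit, genotype only), with Benjamini-Hochberg adjustment over all 15708 tested genes, and a call means an adjusted p under 0.05. Adjusted p-values of single genes are from this fit unless another tool is named. Intervals are 95% from the same fit. Summed reads and ratios were compared by exact permutation over samples. Alternatives were median-ratio size factors, 2 other filters, DESeq2 1.42.0, limma-voom (limma 3.58.1), a fit without robust dispersion and leaving out each library. Replicates were not duplicates of each other (chi-square per degree of freedom 20.8 to 43.3 within groups).

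The members and lists were chosen with earlier results of these data known. All members, pathway genes and neighbours could be named, and of other lists the 3 genes with the highest mean CPM. The 5 genes nearest in profile were named by root mean square distance of centred log2 CPM (prior count 2). Genes outside this rule are said to have been named after their values were seen, or are members of a count of 5 or fewer. The Ighd gene was not matched in the table, and Spi1 and Sppl2a were found through RefSeq synonyms. Some listed genes are counted in their lists but not reported here by name.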

Additional observations from a re-analysis of the deposited data

How the results depend on the processing

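H2-DMa, H2-DMb1 and H2-Oa were called with the same direction by edgeR under median-ratio size factors, both other filters and no robust dispersion, by DESeq2 and by limma-voom, and the other 7 members were called by none of these. Leaving out 1 library gave 1 to 2 members called lower and 0 to 1 called higher. Over all genes it gave 962 to 1256 called higher (1686 with all libraries; lowest without Stag2KO replicate 3) and 902 to 1311 called lower (1647; lowest without Stag2KO replicate 2), in fits with fewer samples. The ranges of called genes were 3 to 8 for the pathway list (6 with all libraries), 0 to 1 for class I (1), 0 to 2 for region neighbours (0), 4 to 7 for monocyte (8), 1 to 2 for plasmacytoid dendritic cell (1), 3 to 6 for T cell (6) and 2 to 4 for stem and progenitor genes (5). DESeq2 called 2 class I genes, 1 region neighbour and 3 plasmacytoid dendritic cell genes, and 2 region neighbours were called with no filter beyond 1 read. With at least 5 CPM in at least 3 libraries, 2 classical dendritic cell and 2 T cell genes were called, since fewer members were tested. The Stag2KO minus Stag2WT difference in the log2 ratio of Cd74 to chain reads, near 0 with all libraries, ran from -0.0587 to 0.0303 without 1 library, changing sign to -0.0587 without Stag2KO replicate 1 and -0.0325 without Stag2WT replicate 1. The summed class II difference ran from -0.93 to -0.36 on the log2 scale, the H2-O to H2-A difference from 0.82 to 1.29, and the H2-DMb2 share difference from 0.131 to 3.998 percentage points. No paired analysis was possible because the labels carry no replicate numbers shared by the groups. Below about 2 CPM, as for H2-Eb2, few reads limit precision.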
